A study of Mus musculus with 12 samples.

Results

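The genes described here are 10 genes whose products differ between fast and slow fibres of skeletal muscle: Myh1, Myh2, Myh4 and Pvalb, typical of fast fibres, and Myh7, Tnnt1, Tnni1, Tnnc1, Myl2 and Myl3, typical of slow fibres. They were chosen by symbol for these known roles, and all 10 were found among the 18996 genes of the count table. The samples came from 12 wild-type BALB/c mice aged 5 to 7 weeks, with 4 mice in each of 3 groups. Collection was 7 days after surgery. The study as a whole included male and female mice, and the sample labels used here do not give the sex of each mouse. The No operation mice had no surgery and gave paraspinal soft tissue. The SHAM mice had surgery that, by the study's description, took away paraspinal soft tissue but left the lamina of the vertebra in place, and they gave scar tissue. The Laminectomy mice had the lamina excised and also gave scar tissue. Poly(A) RNA was sequenced in bulk, so each value is the average over whatever cells the piece of tissue held. The study's own methods name 3 mice per group, without saying which, and all 4 per group were used here.

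A muscle fibre contracts fast or slowly according to the myosin heavy chain it makes. Fast and slow fibres also differ in their troponins, myosin light chains and calcium-handling proteins. Type IIb, IIx and IIa fibres are fast and use the heavy chains of Myh4, Myh1 and Myh2, while type I fibres are slow and use that of Myh7. Trunk muscle of the mouse is known for a large share of fast fibres, and fibres that form anew first make developmental myosins and slow troponins.

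Total counts ranged from 16802989 to 18077868 per mouse. Levels are given as CPM after scaling by TMM (a normalisation that sets a typical gene equal between libraries), and values are listed in the order of mice 1 to 4. All 10 members passed the filter on low counts, along with 14765 genes in all, and the smallest counts behind a member's value were 9 for Myl3 and 10 for Myl2, both in Laminectomy 1.

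In both surgical groups, mouse 1 stood apart from the other mice. In SHAM 1 the 10 genes of the sarcomere that fast and slow fibres share (Acta1, Actn2, Ttn, Neb, Des, Tcap, Ldb3, Myom1, Ckm and Cmya5) summed to 1115 CPM, against 4655 to 6767 CPM in the other SHAM mice. The myoblast markers Pax7, Myod1, Myog, Mymk and Mymx summed to 2.42 CPM in SHAM 1, against 146 to 211 CPM in the other SHAM mice. In Laminectomy 1 the shared sarcomere genes summed to 2578 CPM, against 6978 to 8744 CPM in the other Laminectomy mice, whereas its myoblast sum of 226 CPM lay near their 241 to 265 CPM. Over all genes, Spearman's rho between SHAM 1 and the other SHAM mice was 0.971 to 0.974, against 0.982 to 0.987 among those others. For Laminectomy 1 it was 0.974 to 0.980, against 0.982 to 0.990 among the other Laminectomy mice. Among the No operation mice it was 0.969 to 0.987, so values as low also occurred there. The members' log2 fold changes, ratios and relative levels against No operation, and the counts of these, are therefore given with and without these 2 mice, an alternative chosen after seeing the data. Most other results are given only with them.

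The comparison of SHAM with No operation asks how surgery without bone removal went with fibre type transcripts, and that of Laminectomy with No operation asks the same for surgery with it. The 2 comparisons share the No operation mice, so their values are not independent. A gene was called where edgeR gave it a log2 fold change beyond 0.5 in either direction with an adjusted p (Benjamini-Hochberg) under 0.05. Of the 10 members, 7 were called in SHAM against No operation, 7 lower and 0 higher, where 50.8% of all genes tested were called, 25.1% lower and 25.7% higher. In Laminectomy against No operation 7 of 10 were called, 7 lower and 0 higher, where 48.6% of all genes were called, 24.4% lower and 24.2% higher. The 7 were Myh1, Myh2, Myh4, Pvalb, Myh7, Myl2 and Myl3 in both comparisons, and Tnnt1, Tnni1 and Tnnc1 were not called in either. The same 7 genes had no overlap in CPM between No operation and either surgical group, as did 54.5% of all genes for SHAM and 56.0% for Laminectomy. The median log2 fold change of the 10 members was −4.04 in SHAM and −3.34 in Laminectomy, beside medians over all genes tested of −0.00196 and 0.00927. For the 4 fast members the medians were −4.96 and −4.31, and for the 6 slow members −2.46 and −1.79. In bulk samples, fewer muscle fibres and less RNA per fibre cannot be told apart.

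These counts depended on what the libraries were scaled to. With library sizes scaled to the 10 shared sarcomere genes, the median of all genes moved to 4.12 in SHAM, 3.31 in Laminectomy and −0.795 in Laminectomy against SHAM, and 95.2%, 92.9% and 2.43% of all genes were called. On that scale 4 members were called in SHAM, with Pvalb lower and Tnnt1, Tnni1 and Tnnc1 higher, and 5 in Laminectomy, with Myh2 and Pvalb lower and the same 3 troponin genes higher. Leaving out SHAM 1 or SHAM 4 gave 9 members called in SHAM against No operation, since Tnnt1 and Tnnc1 then passed, beside 7190 and 7239 genes called in all, against 7502 with every mouse. Leaving out any 1 mouse left 7 called in Laminectomy against No operation. With SHAM 1 and Laminectomy 1 both left out, 9 and 7 members were called, beside 7238 and 6788 genes in all.

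**Figure D1:**
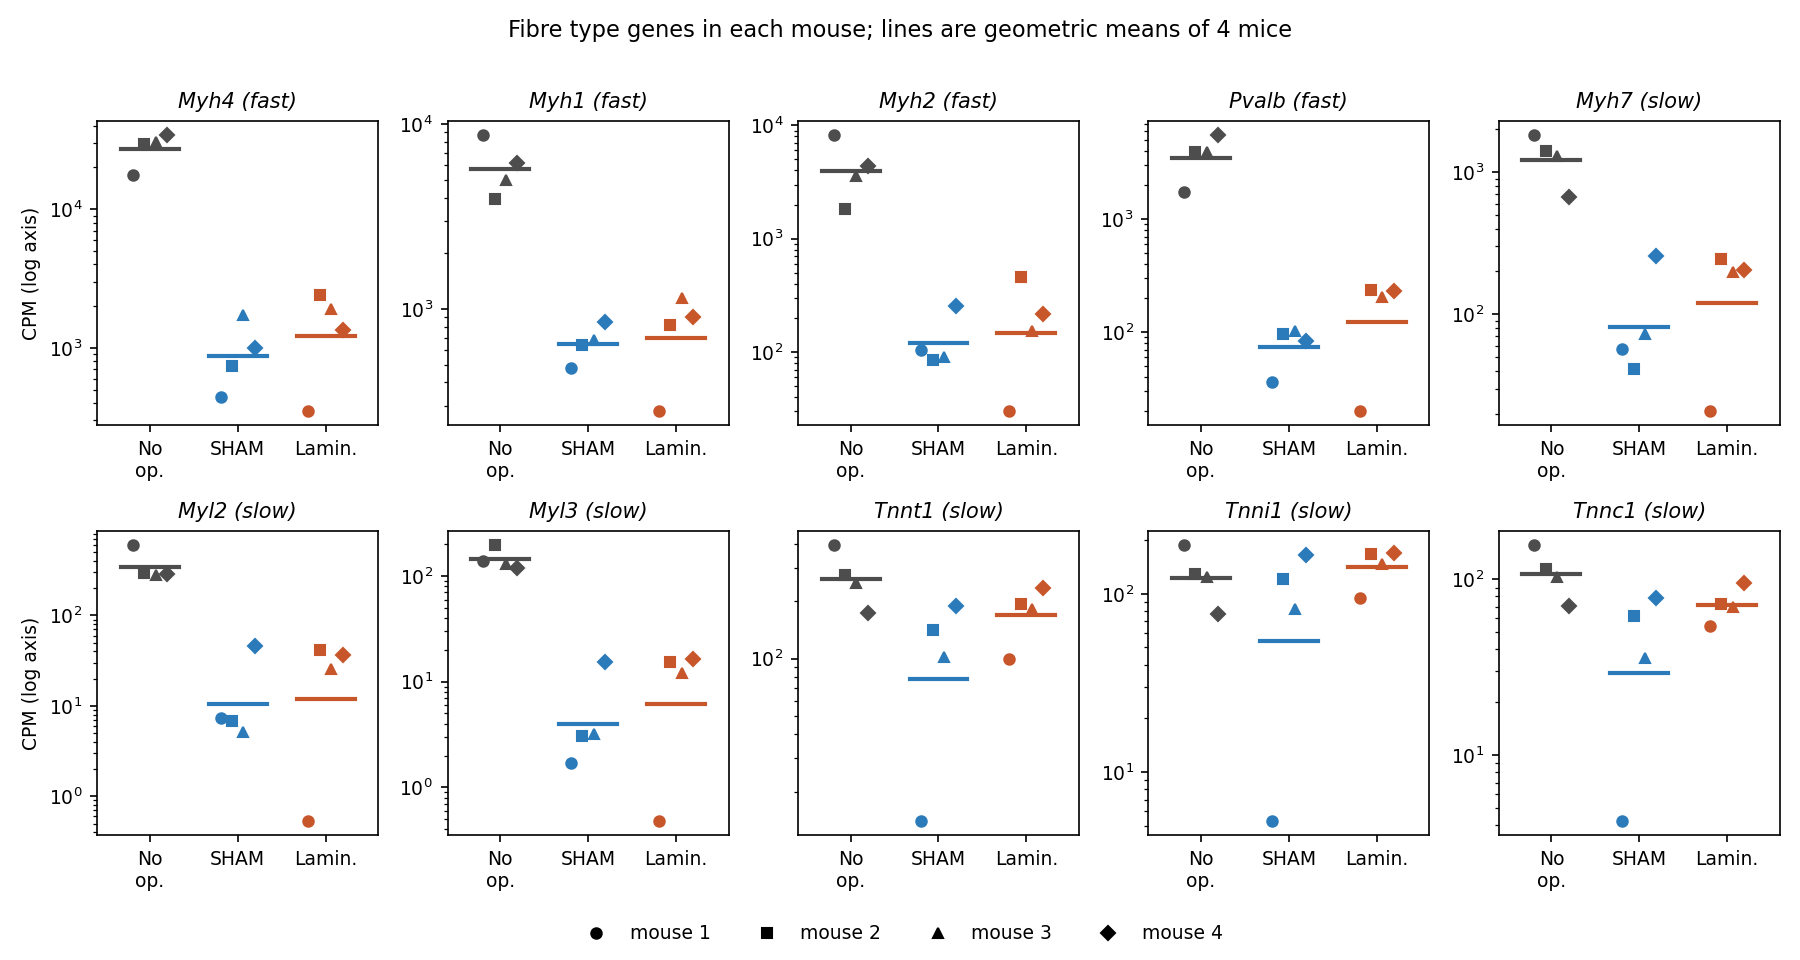
Level of each of the 10 members in every mouse, in CPM on a log axis, with symbols for mice 1 to 4 and lines at the geometric mean of each group of 4. The 4 No operation mice lie above all 8 operated mice for Myh4, Myh1, Myh2, Pvalb, Myh7, Myl2 and Myl3, and overlap with them for Tnnt1, Tnni1 and Tnnc1. Relative to the shared sarcomere genes these 7 overlap in at least 1 comparison and the 3 troponin genes lie higher after surgery. On that scale 93.9% of all genes have no overlap for SHAM and 94.3% for Laminectomy.

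Among the fast myosins, Myh4 encodes the heavy chain of type IIb fibres, the fastest. Its level was 17506, 29343, 30695 and 34501 CPM in the No operation mice, 444, 741, 1739 and 995 CPM in the SHAM mice, and 350, 2409, 1894 and 1345 CPM in the Laminectomy mice. The No operation mice were all above the operated mice, SHAM 1 and Laminectomy 1 were the lowest of their groups, and the surgical groups overlapped. The log2 fold change in edgeR was −4.84 (SE 0.629, Benjamini-Hochberg adjusted p 6.23e-05) in SHAM and −4.22 (SE 0.611, adjusted p 0.000156) in Laminectomy, and −4.56 and −3.88 without mouse 1 of each surgical group. Myh1 encodes the heavy chain of type IIx fibres. It measured 8750, 3908, 5004 and 6154 CPM in the No operation mice, 476, 640, 676 and 850 CPM in the SHAM mice, and 280, 822, 1148 and 899 CPM in the Laminectomy mice. Again the No operation mice did not overlap with the others, and No operation 1 was the highest of all 12. The log2 fold changes were −3.17 (SE 0.416, Benjamini-Hochberg adjusted p 6.52e-05) and −2.92 (SE 0.411, adjusted p 0.000134), and they turned to 0.81 and 0.10, neither called, with libraries scaled to the shared sarcomere genes. They were −3.01 and −2.62 without mouse 1 of each surgical group. Myh2 encodes the heavy chain of type IIa fibres, which are fast and rich in mitochondria. Its level was 8276, 1825, 3537 and 4416 CPM in the No operation mice, 103, 85.5, 90.1 and 257 CPM in the SHAM mice, and 30.0, 458, 152 and 216 CPM in the Laminectomy mice. SHAM 4 was the highest SHAM mouse and Laminectomy 1 the lowest mouse of all, with no overlap between No operation and the rest. The log2 fold changes were −5.07 (SE 0.815, Benjamini-Hochberg adjusted p 0.000265) in SHAM and −4.40 (SE 0.789, adjusted p 0.000635) in Laminectomy, and the latter was −5.09 without Laminectomy 2. Leaving out mouse 1 of each surgical group gave −4.94 and −4.01.

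Pvalb encodes parvalbumin, a calcium buffer that lets fast fibres relax quickly. Its level was 1722, 3922, 3902 and 5593 CPM in the No operation mice, 36.4, 96.2, 101 and 83.5 CPM in the SHAM mice, and 19.9, 237, 205 and 232 CPM in the Laminectomy mice. The No operation mice lay above all others, No operation 1 was the lowest of its group, and mouse 1 was the lowest in each surgical group. The log2 fold change in edgeR was −5.58 (SE 0.742, Benjamini-Hochberg adjusted p 7.25e-05) in SHAM and −4.45 (SE 0.703, adjusted p 0.000278) in Laminectomy. Pvalb remained lower with libraries scaled to the shared sarcomere genes, at −1.87 and −1.68, and without mouse 1 of each surgical group it was at −5.30 and −4.05. Since Pvalb is also made by neurons, the neuronal markers Snap25, Rbfox3, Tubb3, Syt1, Stmn2 and Nefl were read beside it. They summed to 172 CPM in Laminectomy 2 and 56.4 CPM in Laminectomy 3, and to 8.25 to 17.7 CPM in the other 10 mice, with Tubb3 the most abundant by its mean, at 0.630 to 21.8 CPM. Snap25 was at 63.1 CPM in Laminectomy 2 and 23.7 CPM in Laminectomy 3. In Laminectomy 4, where Pvalb was at 232 CPM, the neuronal sum was 16.6 CPM, with Snap25 at 0 and Tubb3 at 9.96 CPM. Of the neuronal markers only Tubb3 and Stmn2 passed the filter on low counts, and they went opposite ways. Tubb3 was called higher in both surgical groups. Stmn2 was called lower in SHAM, at −1.41, and was not called in Laminectomy, at −0.39.

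Myh7 encodes the heavy chain of slow type I fibres and of heart muscle. Its level was 1831, 1404, 1301 and 664 CPM in the No operation mice, 57.0, 41.1, 72.2 and 255 CPM in the SHAM mice, and 20.9, 245, 199 and 205 CPM in the Laminectomy mice. The No operation mice did not overlap with the operated mice, No operation 4 was the lowest of its group, SHAM 4 stood above the other SHAM mice, and Laminectomy 1 was the lowest of all. The log2 fold change in edgeR was −3.61 (SE 0.772, Benjamini-Hochberg adjusted p 0.00178) in SHAM and −2.96 (SE 0.750, adjusted p 0.00536) in Laminectomy. Without SHAM 4 the SHAM value was −4.52, and with libraries scaled to the shared sarcomere genes the values were 0.07 in SHAM, a change of sign, and −0.18 in Laminectomy, neither called. The log2 fold changes were −3.38 and −2.56 without mouse 1 of each surgical group.

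Myl2 and Myl3 encode the regulatory and the essential myosin light chain of slow fibres and of the heart's ventricles. Myl2 was at 605, 292, 280 and 285 CPM in the No operation mice, 7.42, 6.85, 5.19 and 46.2 CPM in the SHAM mice, and 0.529, 42.0, 25.3 and 36.4 CPM in the Laminectomy mice. Myl3 was at 139, 198, 130 and 119 CPM in the No operation mice, 1.69, 3.05, 3.18 and 15.3 CPM in the SHAM mice, and 0.476, 15.3, 11.97 and 16.6 CPM in the Laminectomy mice. For both genes the No operation mice lay above the rest, SHAM 4 lay near the Laminectomy mice 2 to 4, and Laminectomy 1 was the lowest. The log2 fold change of Myl2 in edgeR was −4.48 (SE 1.05, Benjamini-Hochberg adjusted p 0.00311) in SHAM and −3.81 (SE 1.01, adjusted p 0.00699) in Laminectomy. That of Myl3 was −4.65 (SE 0.877, Benjamini-Hochberg adjusted p 0.000779) and −3.72 (SE 0.833, adjusted p 0.00253). Without SHAM 4 the SHAM values were −5.81 for Myl2 and −5.79 for Myl3. Without mouse 1 of each surgical group, Myl2 was at −4.21 and −3.38 and Myl3 at −4.32 and −3.30.

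The 3 slow troponin genes encode the subunits of the calcium switch on the thin filament, Tnnt1 the subunit that binds tropomyosin, Tnni1 the inhibitory subunit and Tnnc1 the subunit that binds calcium. Tnnt1 was at 396, 274, 248 and 174 CPM in the No operation mice, 14.0, 142, 102 and 188 CPM in the SHAM mice, and 100.1, 195, 183 and 235 CPM in the Laminectomy mice. Tnni1 was at 189, 129, 124 and 76.7 CPM in the No operation mice, 5.28, 122, 82.0 and 165 CPM in the SHAM mice, and 94.9, 167, 146.5 and 169 CPM in the Laminectomy mice. Tnnc1 was at 158, 115, 103 and 70.2 CPM in the No operation mice, 4.21, 62.3, 35.7 and 78.0 CPM in the SHAM mice, and 54.3, 72.5, 69.9 and 96.0 CPM in the Laminectomy mice. For all 3 genes the groups overlapped, No operation 1 was the highest of its group and No operation 4 the lowest, and SHAM 1 was the lowest of the 12. In edgeR, Tnnt1 had a log2 fold change of −1.29 (SE 0.573, Benjamini-Hochberg adjusted p 0.0688) in SHAM and −0.62 (SE 0.566, adjusted p 0.369) in Laminectomy. For Tnnc1 the values were −1.31 (SE 0.596, Benjamini-Hochberg adjusted p 0.0758) and −0.61 (SE 0.588, adjusted p 0.394). For Tnni1 they were −0.47 (SE 0.664, Benjamini-Hochberg adjusted p 0.557) and 0.16 (SE 0.662, adjusted p 0.855), the latter −0.02 without No operation 4. An adjusted p above the threshold does not show that these levels were equal between groups. In SHAM, Tnnt1 and Tnnc1 crossed the threshold when a mouse was left out: they were at −0.92 and −0.93 without SHAM 1 and at −1.66 and −1.71 without SHAM 4. They also crossed it in DESeq2, at −1.29 and −1.30. Without mouse 1 of each surgical group, Tnnt1 was at −0.89 and −0.40, Tnnc1 at −0.89 and −0.47, and Tnni1 at −0.04 and 0.33. With libraries scaled to the shared sarcomere genes, Tnnt1, Tnni1 and Tnnc1 were called higher, at 2.07, 2.81 and 2.02 in SHAM and 2.47, 3.29 and 2.58 in Laminectomy. On that scale 95.2% of all genes were called in SHAM and 92.9% in Laminectomy. Each of the troponin values lay below the median of all genes given above for its comparison.

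Levels per kilobase of a gene's merged exons, in CPM per kb, allow a rough comparison of the genes with each other. Merged exons can be longer than a transcript of the gene. Those of Myl2 span 1243 bases, against 729 bases in the Myl2 transcript used for the sequence comparison below. For Myh2, Myh4 and Tnnc1 both lengths were the same. The place of Myl2 in the orders below thus depends on the length used, and orders by transcript length were not computed. In the No operation mice the order of the mean levels per kilobase was Myh4 at 4656 (SD 1220, n = 4), Pvalb at 3636 (SD 1520), Myh1 at 978 (SD 341), Myh2 at 742 (SD 449), Myl2 at 294 (SD 129), Tnnt1 at 253 (SD 85.7), Myh7 at 206 (SD 76.4), Tnnc1 at 155 (SD 50.1), Myl3 at 137 (SD 33.1) and Tnni1 at 102 (SD 36.1). Of neighbours in this order, only Pvalb and Myh1 differed by more than the larger of their SDs, and Myh2 and Myl2, Myh7 and Tnnc1, and Myl3 and Tnni1 by more than the smaller alone. In the SHAM mice the order by level per kilobase was Myh4 at 163 (SD 92.1), Myh1 at 109 (SD 25.2), Tnnt1 at 103 (SD 68.5), Pvalb at 76.3 (SD 28.5), Tnni1 at 73.5 (SD 53.4), Tnnc1 at 62.5 (SD 44.8), Myh2 at 22.0 (SD 13.5), Myh7 at 16.9 (SD 15.8), Myl2 at 13.2 (SD 16.0) and Myl3 at 5.44 (SD 5.98). In the Laminectomy mice it was Myh4 at 249 (SD 146), Pvalb at 167 (SD 99.3), Tnnt1 at 165 (SD 52.5), Myh1 at 129 (SD 60.1), Tnni1 at 113 (SD 27.1), Tnnc1 at 101.5 (SD 23.9), Myh2 at 35.2 (SD 29.6), Myh7 at 26.6 (SD 15.8), Myl2 at 21.0 (SD 14.8) and Myl3 at 10.4 (SD 6.87). Among neighbours in these groups, Tnnc1 and Myh2 in Laminectomy differed by more than the larger SD. Myh4 and Myh1 and also Tnnc1 and Myh2 in SHAM, and Myl2 and Myl3 in both groups, did so by more than the smaller alone. Myh4 had the highest mean per kilobase in all 3 groups and Myl3 the lowest in both surgical groups. In the surgical groups the mean levels per kilobase of the 3 troponin genes lay above those of Myh2, Myh7 and both light chains, whereas in the No operation mice Myh2 lay above all 3.

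Ratios between genes within a mouse do not depend on how the libraries are scaled. Of 10 ratios of a fast to a slow gene or between fast myosins, 5 had no overlap between No operation and SHAM, and the same number had none between No operation and Laminectomy. The 5 were the same in both comparisons: 3 of fast to slow troponin genes, Pvalb/Tnnc1 and Atp2a1/Atp2a2. Tnnt3 encodes the fast form of the subunit that Tnnt1 encodes, and Tnnt3/Tnnt1 was 22.3, 34.0, 44.7 and 76.5 in the No operation mice, 12.4, 5.19, 7.24 and 4.52 in the SHAM mice, and 3.16, 6.13, 6.49 and 5.02 in the Laminectomy mice. Tnni2 is the fast counterpart of Tnni1, and Tnni2/Tnni1 was 13.2, 19.2, 24.0 and 48.2 in the No operation mice, 7.64, 1.69, 2.36 and 1.46 in the SHAM mice, and 0.827, 1.98, 1.97 and 1.87 in the Laminectomy mice. Tnnc2 is the fast counterpart of Tnnc1, and Tnnc2/Tnnc1 was 21.6, 31.6, 43.1 and 77.1 in the No operation mice, 12.5, 6.32, 9.45 and 5.57 in the SHAM mice, and 3.10, 8.60, 6.69 and 6.13 in the Laminectomy mice. In each troponin ratio No operation 4 was the highest mouse, SHAM 1 was the highest operated mouse and lay nearest to No operation, and Laminectomy 1 was the lowest. The differences in mean log2 ratio were −2.57, −3.17 and −2.27 in SHAM and −3.001, −3.90 and −2.75 in Laminectomy, in the order Tnnt, Tnni and Tnnc. Each had a two-sided exact permutation p of 0.0286, the smallest that 4 against 4 mice can give, and a Benjamini-Hochberg adjusted p of 0.0857 over 30 tests, so none passed after adjustment although all 4 mice of each surgical group showed the direction. Without mouse 1 of each surgical group the differences were −2.86, −3.69 and −2.48 in SHAM and −2.78, −3.59 and −2.46 in Laminectomy.

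Pvalb/Tnnc1, which sets the fast fibre's calcium buffer against the slow calcium sensor, was 10.9, 34.0, 38.0 and 79.5 in the No operation mice, 8.43, 1.55, 2.83 and 1.07 in the SHAM mice, and 0.368, 3.26, 2.93 and 2.42 in the Laminectomy mice. SHAM 1, at 8.43, came close to No operation 1, at 10.9, and Laminectomy 1 was the lowest. The differences in mean log2 ratio were −3.70 in SHAM and −4.25 in Laminectomy (two-sided exact permutation p 0.0286, Benjamini-Hochberg adjusted p 0.0857), and the latter was −3.51 without Laminectomy 1. Atp2a1 and Atp2a2 encode the calcium pumps SERCA1 of fast and SERCA2 of slow fibres, and the second is also made by many other cells. Atp2a1 alone was at 18754 to 27308 CPM in the No operation mice, 394 to 1561 CPM in the SHAM mice and 474 to 2317 CPM in the Laminectomy mice, and Atp2a2 at 476 to 1050, 337 to 546 and 385 to 538 CPM. Their ratio was 22.6, 25.9, 37.6 and 57.3 in the No operation mice, 1.12, 2.71, 3.22 and 2.597 in the SHAM mice, and 1.23, 4.31, 3.85 and 3.47 in the Laminectomy mice. Mouse 1 was the lowest in all 3 groups. The differences in mean log2 ratio were −3.90 and −3.53, with the same exact permutation p of 0.0286 and Benjamini-Hochberg adjusted p of 0.0857. Without mouse 1 of each surgical group the differences were −4.28 and −3.51 for Pvalb/Tnnc1 and −3.57 and −3.12 for Atp2a1/Atp2a2.

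For the ratios among myosin heavy chains the groups overlapped. Myh4/Myh7 was 9.56, 20.9, 23.6 and 52.0 in the No operation mice, 7.77, 17.98, 24.0 and 3.90 in the SHAM mice, and 16.7, 9.82, 9.52 and 6.54 in the Laminectomy mice. The difference in mean log2 ratio was −1.06 in SHAM (exact permutation p 0.200, Benjamini-Hochberg adjusted p 0.375) and −1.15 in Laminectomy (exact permutation p 0.0857, adjusted p 0.184). Myh4/Myh1 was 2.00, 7.51, 6.13 and 5.61 in the No operation mice, 0.932, 1.16, 2.57 and 1.17 in the SHAM mice, and 1.25, 2.93, 1.65 and 1.496 in the Laminectomy mice. Apart from No operation 1, the No operation mice lay above all others, and the difference was −1.83 in SHAM and −1.46 in Laminectomy (exact permutation p 0.0571, Benjamini-Hochberg adjusted p 0.143, in each). For Myh1/Myh7 the differences were 0.77 and 0.31, for Myh2/Myh7 −1.12 and −1.41, and for Myh4/Myh2 0.07 and 0.26, with exact permutation p from 0.0857 to 0.886. Myh4/Myh2 changed sign without No operation 1, to −0.50 in SHAM and −0.31 in Laminectomy, and in SHAM also without SHAM 2 or SHAM 3, and Myh1/Myh7 in Laminectomy was at −0.09 without Laminectomy 1. With mouse 1 of each surgical group left out, the differences in SHAM and Laminectomy were −0.90 and −1.39 for Myh4/Myh7, −1.65 and −1.30 for Myh4/Myh1, 0.75 and −0.09 for Myh1/Myh7, −1.22 and −1.49 for Myh2/Myh7, and 0.32 and 0.10 for Myh4/Myh2, and 5 of 10 ratios had no overlap in each. Without No operation 1 the number of ratios with no overlap was 6 in SHAM and 7 in Laminectomy, and it was 6 in both without No operation 2, 6 in SHAM without SHAM 3 and 6 in Laminectomy without Laminectomy 2. Such a number cannot fall when a mouse is left out. As a share of the summed CPM of Myh1, Myh2, Myh4 and Myh7, Myh4 made up 48.1%, 80.4%, 75.7% and 75.4% in the No operation mice, 41.1%, 49.2%, 67.5% and 42.2% in the SHAM mice, and 51.4%, 61.2%, 55.8% and 50.5% in the Laminectomy mice. Mice 2 to 4 of No operation were above all operated mice, and No operation 1 lay among them.

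Sums over the members are given without a test. The summed fast members over the summed slow members were 10.9, 16.2, 19.7 and 36.5 in the No operation mice, 11.8, 4.15, 8.68 and 2.92 in the SHAM mice, and 2.51, 5.33, 5.35 and 3.55 in the Laminectomy mice. SHAM 1 overlapped with No operation 1. Within the slow members, the sum of Myh7, Myl2 and Myl3 over that of Tnnt1, Tnni1 and Tnnc1 was 3.47, 3.65, 3.61 and 3.33 in the No operation mice, 2.82, 0.157, 0.367 and 0.734 in the SHAM mice, and 0.0877, 0.698, 0.591 and 0.517 in the Laminectomy mice. The 4 No operation mice lay within a narrow range, SHAM 1 lay just beneath them, and the other 7 operated mice were all below 1.

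**Figure D2:**
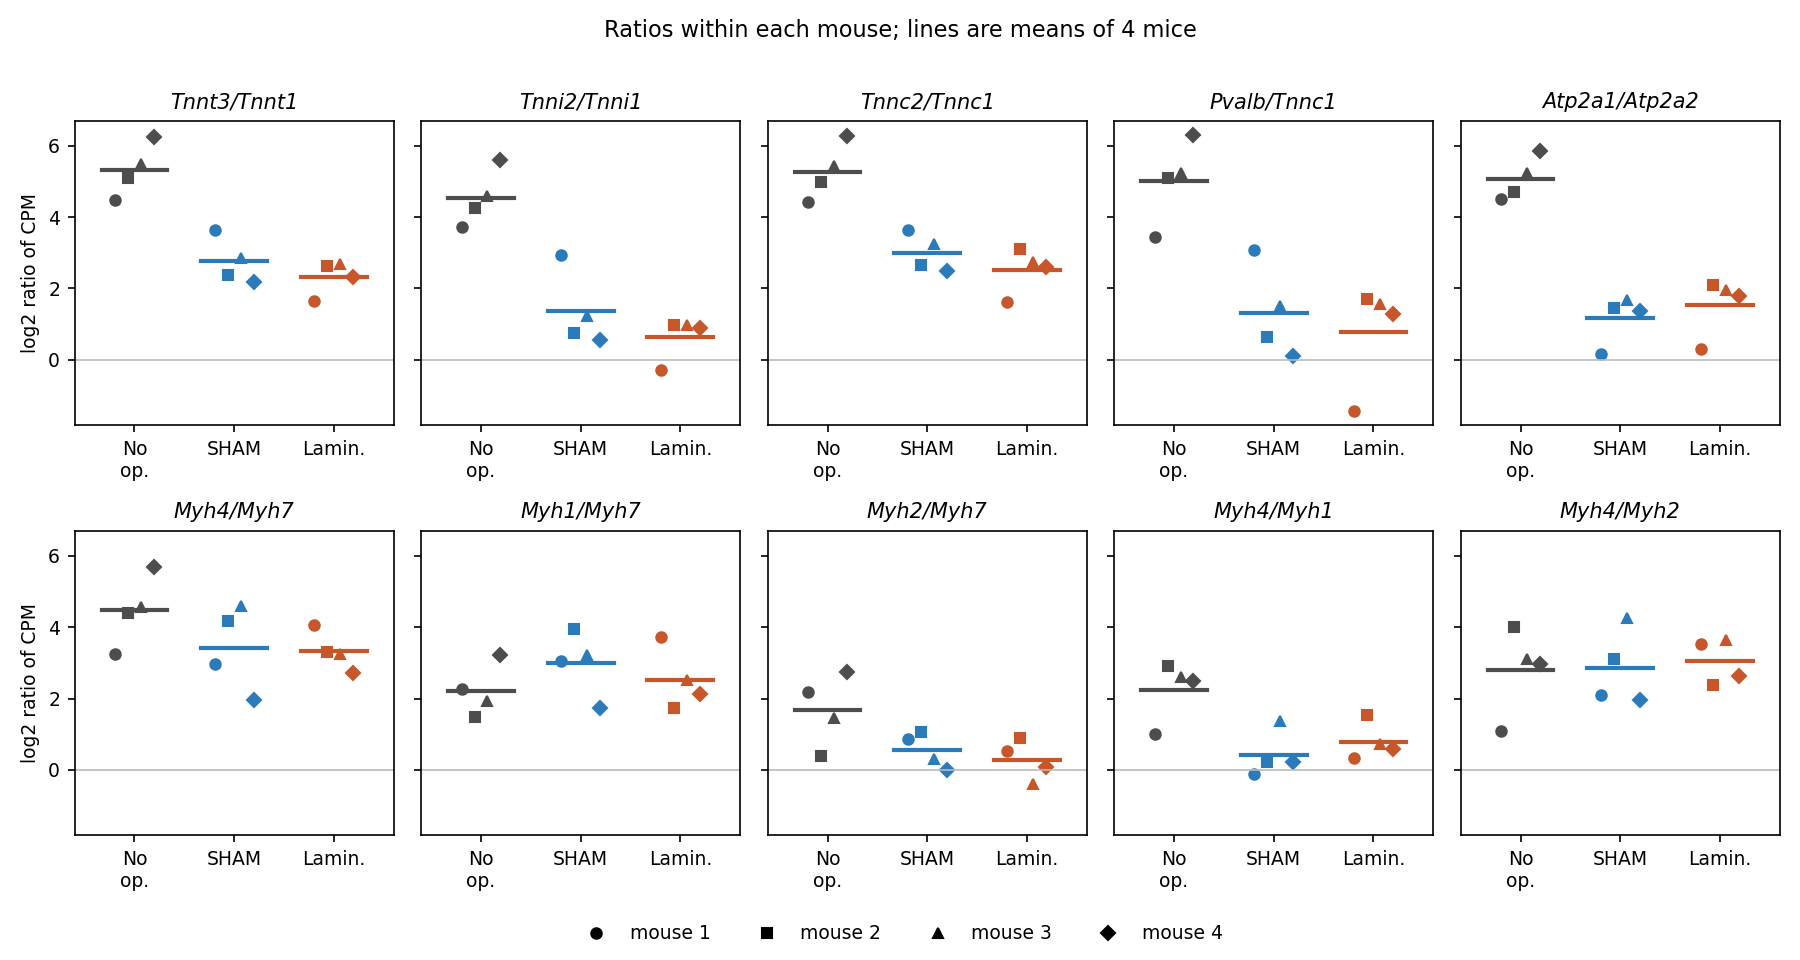
The log2 of 10 ratios of CPM in every mouse, with symbols for mice 1 to 4 and lines at the mean of each group of 4. For Tnnt3/Tnnt1, Tnni2/Tnni1, Tnnc2/Tnnc1, Pvalb/Tnnc1 and Atp2a1/Atp2a2 the No operation mice lie above all 8 operated mice, and for the 5 ratios among myosins the groups overlap.

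Each member was also set against the mean log2 CPM of the 10 shared sarcomere genes of the same mouse, which gives its level per unit of muscle transcript. On this scale 3 members had no overlap between No operation and SHAM, 3 higher and 0 lower, where 93.9% of all genes had none. Between No operation and Laminectomy 5 had none, 3 higher and 2 lower, where 94.3% of all genes had none, so these counts lay below the background. The 3 were Tnnt1, Tnni1 and Tnnc1. Relative Tnni1 was −4.17, −4.10, −4.53 and −5.40 on the log2 scale in the No operation mice, −3.65, −1.09, −1.91 and −1.16 in the SHAM mice, and −0.56, −1.57, −1.51 and −1.30 in the Laminectomy mice. SHAM 1 was the operated mouse nearest to No operation, and Laminectomy 1 was the highest. The difference in means was 2.601 in SHAM and 3.32 in Laminectomy for Tnni1, 2.05 and 2.51 for Tnnt1, and 1.92 and 2.55 for Tnnc1, each with a two-sided exact permutation p of 0.0286 and a Benjamini-Hochberg adjusted p of 0.107 over 30 tests, which did not pass. Without mouse 1 of each surgical group they were 3.17 and 3.09, 2.33 and 2.35, and 2.29 and 2.27. The 2 lower members in Laminectomy were Myh4, at a difference of −1.36, and Myl2, at −1.65 (exact permutation p 0.0286, Benjamini-Hochberg adjusted p 0.107). The Myl2 difference was −0.63 without Laminectomy 1, which was at −7.767. For Myl2 the groups all but touched, with Laminectomy 4 at −3.515 and No operation 4 at −3.513. Relative Myh7 differed by −0.13 in SHAM and −0.21 in Laminectomy, relative Myh1 by 0.64 and 0.10, relative Myh2 by −1.26 and −1.62, relative Pvalb by −1.78 and −1.70, and relative Myl3 by −1.35 and −1.33, with overlap in each. In SHAM, relative Myh4 differed by −1.19 and relative Myl2 by −1.24, also with overlap. Relative Myl3 in Laminectomy was at −0.59 without Laminectomy 1. The sign of relative Myh7 changed in SHAM without SHAM 2, to 0.29, without SHAM 3, to 0.10, or without No operation 2, to 0.06, and in Laminectomy without Laminectomy 1, to 0.21. Relative Myh1 in Laminectomy was at −0.03 without Laminectomy 3. With mouse 1 of each surgical group left out, the differences in SHAM and Laminectomy were −1.41 and −1.18 for Myh4, 0.24 and 0.12 for Myh1, −1.73 and −1.28 for Myh2, −1.99 and −1.24 for Pvalb, −0.51 and 0.21 for Myh7, −1.62 and −0.63 for Myl2, and −1.49 and −0.59 for Myl3, and 5 members had no overlap in each. The count in SHAM was 6 without No operation 1, 5 without SHAM 1 and 4 without SHAM 4. In Laminectomy the largest count was 7, without Laminectomy 4, and it was 6 without No operation 1, 2 or 4 or without Laminectomy 2. Such a count cannot fall when a mouse is left out, and the share over all genes was not computed with mice left out. A higher count there is thus not a result about the members.

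**Figure D3:**
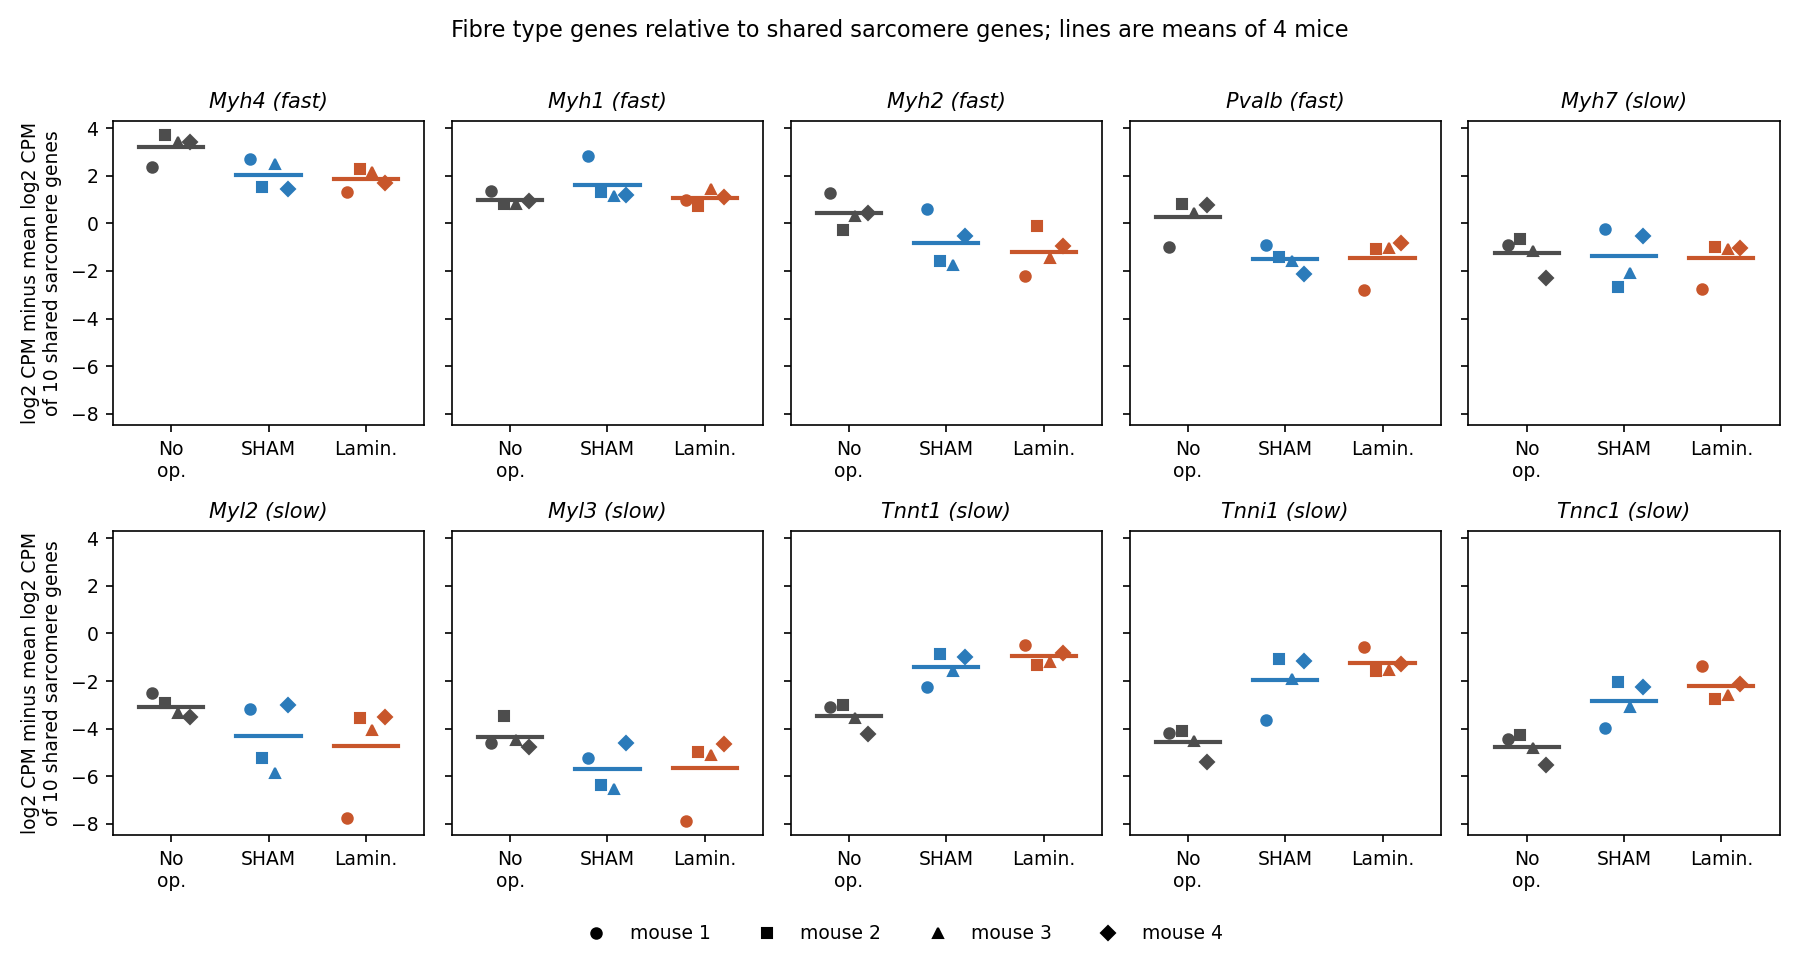
Level of each of the 10 members minus the mean of the 10 shared sarcomere genes, on the log2 CPM scale, in every mouse, with symbols for mice 1 to 4 and lines at the mean of each group of 4. Tnnt1, Tnni1 and Tnnc1 lie higher in all 8 operated mice than in the 4 No operation mice, whereas in CPM their groups overlap. On the relative scale 93.9% of all genes have no overlap for SHAM and 94.3% for Laminectomy.

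The comparison of Laminectomy with SHAM asks what removal of bone adds to the surgery. In edgeR 0 of 10 members were called, as were 0% of all genes tested, and 0 members had an unadjusted p below 0.05, against 16.0% of all genes. DESeq2 also called 0 members, among 687 genes that it called in all. Without overlap between these groups were 0 members, against 10.1% of all genes, and 0 relative to the shared sarcomere genes, against 1.23%. The log2 fold changes ran from 0.25 for Myh1 to 1.13 for Pvalb (SE 0.619, edgeR Benjamini-Hochberg adjusted p 0.395), with a median of 0.67 beside 0.00372 for all genes. All 10 were above 0, while with libraries scaled to the shared sarcomere genes Myh1, Myh2, Myh4, Myh7 and Myl2 were below 0, and Myh2 was at −0.01 without Laminectomy 2. Without SHAM 4, Myl3 was at 2.07, Myl2 at 2.00 and Myh7 at 1.56, all above Pvalb with every mouse. No ratio of 10 was without overlap, with differences from −0.72 to 0.37 on the log2 scale and exact permutation p from 0.314 to 0.857. With mouse 1 of each surgical group left out, 5 of these differences changed sign: Tnnt3/Tnnt1 was at 0.08, Tnni2/Tnni1 at 0.11, Tnnc2/Tnnc1 at 0.03, Pvalb/Tnnc1 at 0.77 and Myh4/Myh2 at −0.22. The number of ratios without overlap was 1 without SHAM 3, 1 without Laminectomy 1 and 1 without mouse 1 of each group, and the relative count was 1 without Laminectomy 3 and 1 without mouse 1 of each group. Neither count can fall when a mouse is left out, and the share over all genes was not computed there.

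Other genes of fast and slow fibres were read as lists. Of 11 fast partners (Tnnt3, Tnni2, Tnnc2, Mylpf, Myl1, Atp2a1, Actn3, Casq1, Mybpc2, Gpd1 and Pfkm), 11 were called lower in SHAM and 11 in Laminectomy, with median log2 fold changes of −4.08 and −3.49. The largest changes were in Mybpc2, a myosin-binding protein of fast fibres, at −4.92 and −4.50, in Atp2a1 at −4.49 and −3.88, and in Actn3, the alpha-actinin of fast fibres, at −4.15 and −3.69. Among the ratio partners, Tnnt3 was at −4.09 and −3.46, Tnni2 at −4.10 and −3.53, and Tnnc2 at −3.79 and −3.19. Of 11 slow partners (Atp2a2, Casq2, Mybpc1, Myh7b, Myl6b, Myoz2, Sln, Tpm3, Myom3, Smyd1 and Fhl1), 7 were called lower in SHAM, and 6 lower and 1 higher in Laminectomy, with medians of −1.84 and −1.29. The largest decreases were in Smyd1, a methyltransferase needed for sarcomere assembly, at −3.44 and −2.65, in Fhl1, a LIM domain protein, at −3.06 and −2.63, and in Myoz2, a Z-disc protein, at −2.92 and −2.53. The 1 higher was Sln, the SERCA inhibitor sarcolipin, named after its value was seen, at 2.09. Atp2a2 was at −0.78 (Benjamini-Hochberg adjusted p 0.0143) in SHAM and −0.60 (adjusted p 0.0452) in Laminectomy in edgeR. The 10 shared sarcomere genes were all called lower in both, with medians of −3.56 and −3.05, which is about the change the relative scale takes out. Single genes of this list ran from −4.77 for Tcap to −2.01 for Des in SHAM, and from −4.22 to −1.62 for the same genes in Laminectomy. In Laminectomy against SHAM, 0 genes of each of these lists were called in edgeR, and 0 had an unadjusted p below 0.05.

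Of 6 developmental genes, 5 were tested and 4 were called higher in each surgical group, with medians of 4.31 and 4.91. Myh3 encodes the embryonic myosin heavy chain, and its level was 20.1, 7.37, 21.3 and 12.1 CPM in the No operation mice, 1.35, 587, 640 and 1009 CPM in the SHAM mice, and 665, 1018, 821 and 918 CPM in the Laminectomy mice. Myh8 encodes the perinatal heavy chain, and its level was 13.8, 6.17, 12.1 and 8.13 CPM in the No operation mice, 1.29, 486, 444 and 917 CPM in the SHAM mice, and 441, 851, 633 and 748 CPM in the Laminectomy mice. In both genes SHAM 1 was the lowest of the 12 mice, and the other 7 operated mice lay above all No operation mice. The log2 fold changes in edgeR were 5.20 (SE 1.19, Benjamini-Hochberg adjusted p 0.00273) and 5.81 (SE 1.23, adjusted p 0.00176) for Myh3, 5.52 (SE 1.19) and 6.06 (SE 1.22) for Myh8, and 4.31 and 4.91 for Myl4, an embryonic light chain. The fourth was Tnnt2, the embryonic and cardiac troponin T, at 3.52 and 4.07. Actc1, the actin of heart and developing muscle, was not called, and Myh15 did not pass the filter on low counts. In SHAM 1, where Myh3 and Myh8 were lowest, Tnnt1, Tnni1 and Tnnc1 were lowest too, while Myh4 was at 444 CPM, above the 350 CPM of Laminectomy 1. The sum of the shared sarcomere genes was also lowest in SHAM 1, at 1115 CPM against 2578 CPM in Laminectomy 1. Low levels there were thus not particular to the developmental and troponin genes, and their cause was not tested.

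Of 19 regulators of fibre type, 14 were called lower in SHAM and 12 in Laminectomy, with medians of −1.22 and −0.9985. The largest changes were in Ppargc1a, a coactivator of mitochondrial genes, at −4.11 and −3.38, in the nuclear receptor Esrrg at −4.14 and −3.11, and in Sox6, a repressor of slow fibre genes, at −3.44 and −2.63. Among the regulators with the highest mean levels were the transcription factors Mef2c, at a mean of 283 CPM with changes of −1.93 and −1.22, Mef2d, at 202.5 CPM with −0.83 and −0.85, Maf, at 157 CPM with 0.07 and −0.49, neither called, and Tead1, at 156 CPM with −1.20 and −0.9985. Nfatc1 was called higher in Laminectomy, at 0.72. Maf is also known in macrophages. In Laminectomy against SHAM 0 regulators were called in edgeR, while 7 of 19 had an unadjusted p below 0.05.

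Markers of some other cell types also differed between the groups. The macrophage markers Cd68, Adgre1, Csf1r, C1qa, C1qb and Mrc1 summed to 1107, 522, 599 and 471 CPM in the No operation mice, 4332, 2504, 2523 and 2475 CPM in the SHAM mice, and 2002, 1587, 1691 and 1564 CPM in the Laminectomy mice. Of these 6, 6 were called higher in SHAM and 5 in Laminectomy, Csf1r was the most abundant by its mean over the 12 mice, and none was at 0 in any mouse. The fibroblast markers Col1a1, Col1a2, Col3a1, Pdgfra, Dcn and Lum summed to 25719, 26283, 19301 and 8380 CPM in the No operation mice, 75857, 62001, 66720 and 54104 CPM in the SHAM mice, and 58295, 63176, 55451 and 49842 CPM in the Laminectomy mice. Of these 6, 5 were called higher and 1 lower in SHAM and 4 higher and 1 lower in Laminectomy, with Col1a1 the most abundant by its mean over the 12 mice and none at 0. The 1 lower was Dcn in both, at −0.94 and −1.73, and Pdgfra was not called in Laminectomy. The shared sarcomere genes summed to 53283, 40569, 49948 and 61484 CPM in the No operation mice, 1115, 4655, 5456 and 6767 CPM in the SHAM mice, and 2578, 8744, 6978 and 7069 CPM in the Laminectomy mice, with Acta1 the most abundant. The No operation mice were thus above all operated mice in the sarcomere sum and below them in the macrophage and fibroblast sums, although Dcn went the other way. The myoblast markers summed to 65.9, 46.5, 42.0 and 48.2 CPM in the No operation mice, 2.42, 211, 146 and 204 CPM in the SHAM mice, and 226, 265, 241 and 253 CPM in the Laminectomy mice, with Myog the most abundant by its mean over the 12 mice, and 3 of 5 were called higher in each surgical group. Mymx was at 0 in No operation 1. Of 4 neutrophil markers 1 was called higher in SHAM and 0 in Laminectomy, of 4 endothelial markers 2 were called lower in each, and of 4 smooth muscle markers 1 was called higher and 1 lower in SHAM and 2 higher and 1 lower in Laminectomy. Of 6 neuronal markers 2 were tested, with 1 called higher and 1 lower in SHAM and 1 higher in Laminectomy. Of 6 cardiac markers 3 were tested, with 2 called higher and 1 lower in SHAM and 1 of each in Laminectomy. The part of these cell types in the results on the 10 members was not tested. Myh7, Myl2, Myl3 and Tnnc1 are also heart genes. Over the 12 mice the cardiac markers were at 0 to 0.0518 CPM for Myl7, 0 to 0.160 CPM for Nppa, 0 to 4.11 CPM for Ryr2, 0.0562 to 6.55 CPM for Myh6, 0 to 1.63 CPM for Mybpc3 and 0.504 to 4.71 CPM for Tnni3. Tnni3 was called higher in SHAM (1.83) and Laminectomy (1.18), Mybpc3 higher in SHAM (2.35) and Myh6 lower in both.

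On the genome (GRCm38), Myh2 (gene ID 17882, chr11:67171027-67197517), Myh1 (17879, chr11:67200052-67224575) and Myh4 (17884, chr11:67238029-67260446) follow each other on the plus strand of chromosome 11, with Myh3 (17883, chr11:67078300-67102291) before them and Myh8 (17885, chr11:67277124-67308634) after them. The 3 adult genes in the middle were called lower after surgery and the 2 developmental genes at the sides higher, but with libraries scaled to the shared sarcomere genes Myh1 was above 0 and of the 3 only Myh2 in Laminectomy, at −1.53, was still called lower. Myh7 (140781, chr14:54970684-54994626, minus strand) and Tnnc1 (21924, chr14:31208312-31211729, plus) are on chromosome 14. The others are Tnnt1 (21955, chr7:4504570-4516382, minus), Tnni1 (21952, chr1:135779434-135810989, plus), Myl2 (17906, chr5:122100951-122113472, plus), Myl3 (17897, chr9:110741861-110769798, plus) and Pvalb (19293, chr15:78191114-78206400, minus). Exons of Myh1, Myh2 and Myh7 overlap antisense genes on the opposite strand by up to 259, 237 and 189 bases, and those of Myl2 overlap Ccdc63 by 60 bases.

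**Figure D4:**
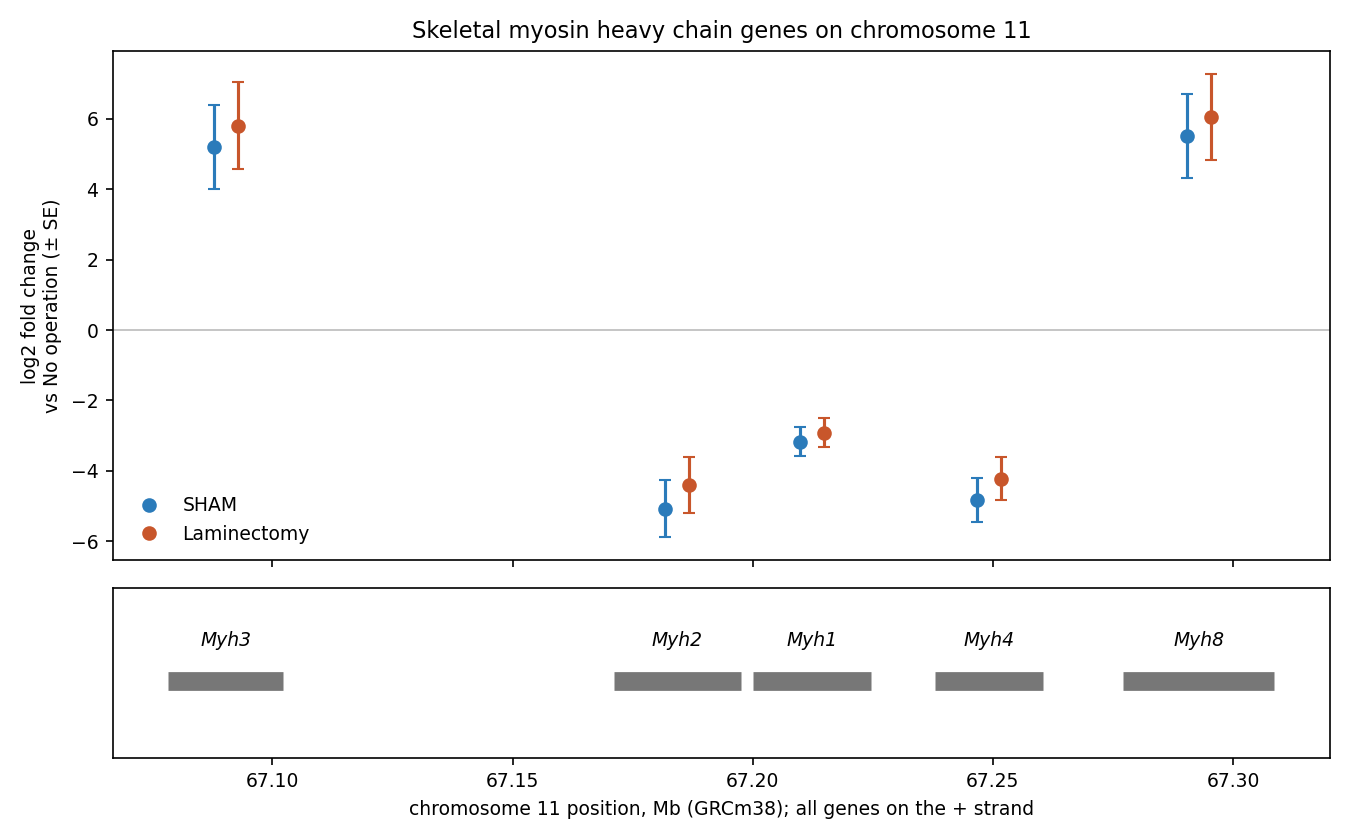
Log2 fold change against No operation with its SE for 5 skeletal myosin heavy chain genes (top), 4 mice per group, over their positions in Mb on chromosome 11 of GRCm38 (bottom). Myh2, Myh1 and Myh4 lie below 0, from −5.07 to −2.92, and Myh3 and Myh8 above 0, from 5.20 to 6.06; with libraries scaled to the shared sarcomere genes Myh1 lies above 0, at 0.81 and 0.10, and of the 3 only Myh2 in Laminectomy is still called lower.

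The coding sequences of Myh1, Myh2 and Myh4 are so alike that short reads from parts of them fit more than 1 gene. Coding identity was 91.1% for Myh1 and Myh2, 90.3% for Myh1 and Myh4 and 88.2% for Myh2 and Myh4, and 77.6% to 78.1% between each of these and Myh7. Between fast and slow counterparts it was 70.7% for Tnnt1 and Tnnt3, 71.4% for Tnni1 and Tnni2 and 70.4% for Tnnc1 and Tnnc2. Of windows of 100 bases, the read length, 14.7% in Myh1, 11.2% in Myh2 and 3.85% in Myh4 occurred unchanged in another gene, neighbouring myosins among them, as did 13.9% in Myh7, with Myh6 and the antisense gene Mhrt among those genes. In the other 6 members it was 0%. The deposited values of Myh1, Myh2 and Myh4 were not whole numbers in any of the 12 mice, those of Myh7 in 10, and those of the other 6 members in 0. The longest unbroken run that Myh1 and Myh2 share is 268 bases, coding bases 2711 to 2978 in both, spread over 2 exons within chr11:67213219-67213597 for Myh1 and chr11:67188318-67188696 for Myh2, plus strand. It is shown because a read inside it cannot be given to either gene by its sequence.
Myh1 and Myh2 shared coding run: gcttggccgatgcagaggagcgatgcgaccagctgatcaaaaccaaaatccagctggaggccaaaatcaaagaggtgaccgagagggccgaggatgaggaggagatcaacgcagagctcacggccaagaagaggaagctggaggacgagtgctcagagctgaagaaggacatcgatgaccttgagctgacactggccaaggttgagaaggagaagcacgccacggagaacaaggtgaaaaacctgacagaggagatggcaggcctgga

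Promoter windows of the 250 bases before a start given by RefSeq (GRCm38.p6) were read, where all 10 members were found, with 14 windows in all. These starts can differ from those of the gene positions above, which came from GENCODE. The Tnni1 and Myl3 windows lie inside the GENCODE positions of their genes, and the Myh1 window ends past its GENCODE start. The windows of Myh2 (chr11:67170777-67171026), Myh1 (chr11:67199852-67200101) and Myh4 (chr11:67237562-67237811), all on the plus strand, are shown because these 3 neighbours were all called lower in both surgical groups. Capitals mark a run of 20 bases that the 3 windows share, which begins at −130 in Myh2, −165 in Myh1 and −163 in Myh4 from the start. On the same strand that run occurred in 3 of 32851 RefSeq promoter windows, those of these 3 genes, and on the other strand in 0.
Myh2 promoter: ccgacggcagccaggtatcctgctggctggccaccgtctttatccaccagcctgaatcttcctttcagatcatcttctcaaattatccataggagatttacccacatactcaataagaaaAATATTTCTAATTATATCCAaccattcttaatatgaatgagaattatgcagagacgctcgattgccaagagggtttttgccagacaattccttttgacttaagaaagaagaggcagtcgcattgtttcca
Myh1 promoter: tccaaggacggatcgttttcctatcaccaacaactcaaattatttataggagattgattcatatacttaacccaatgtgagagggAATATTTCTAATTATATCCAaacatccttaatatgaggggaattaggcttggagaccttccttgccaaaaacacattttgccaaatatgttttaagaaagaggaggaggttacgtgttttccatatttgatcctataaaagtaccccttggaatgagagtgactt
Myh4 promoter: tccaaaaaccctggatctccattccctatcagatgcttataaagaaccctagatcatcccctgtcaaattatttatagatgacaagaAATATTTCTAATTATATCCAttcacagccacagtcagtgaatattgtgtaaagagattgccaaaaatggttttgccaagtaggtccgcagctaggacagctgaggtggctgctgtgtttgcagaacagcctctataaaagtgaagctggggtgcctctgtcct

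Motifs were searched on both strands of the 14 windows. The E-box CANNTG occurred in windows of 8 of 10 members and in 66.2% of all promoter windows. The MCAT motif CATTCC occurred in 5 members (Myh1, Myh4, Myh7, Myl3 and Tnnc1) and in 12.6% of all windows, and TATAAA in 4 members (Myh1, Myh4, Myl2 and Tnnt1) and in 12.4%. The MEF2 element occurred in 3 members (Myh1, Myh4 and Pvalb) and in 2.92% of all windows, and the CArG box in 2 (Myh4 and Myl3) and in 1.47%. Some members have more than 1 window, so the shares compare with counts of windows. Of the 14 windows, 11 held an E-box, 5 the MCAT motif, 4 TATAAA, 3 the MEF2 element and 2 the CArG box. In Myh1 and Myh4 the MEF2 match overlaps a TATAAA match on the other strand. The Myh2 window held no match to any of the 5. A match describes the letters of the window only. The windows of Tnni1 (chr1:135799171-135799420, plus strand) and Tnnc1 (chr14:31208062-31208311, plus strand), which were not called in either surgical group, are shown beside that of Myl3 (chr9:110763428-110763677, plus strand), which was called lower in both. In these 3, capitals mark the E-box and MCAT matches, with 4 E-boxes in Tnni1, 2 E-boxes and 1 MCAT motif in Tnnc1, and 1 E-box and 2 MCAT motifs in Myl3, which also holds a CArG box at −85, in lower case.
Tnni1 promoter: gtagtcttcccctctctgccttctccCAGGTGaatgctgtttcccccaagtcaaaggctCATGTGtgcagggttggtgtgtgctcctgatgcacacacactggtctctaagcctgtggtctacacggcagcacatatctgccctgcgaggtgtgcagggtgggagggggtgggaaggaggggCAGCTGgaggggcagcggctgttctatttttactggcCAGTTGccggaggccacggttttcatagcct
Tnnc1 promoter: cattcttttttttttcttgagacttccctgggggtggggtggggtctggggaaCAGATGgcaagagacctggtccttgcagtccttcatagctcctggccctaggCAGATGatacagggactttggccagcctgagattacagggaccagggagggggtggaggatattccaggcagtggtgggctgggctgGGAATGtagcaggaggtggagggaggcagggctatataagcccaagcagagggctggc
Myl3 promoter: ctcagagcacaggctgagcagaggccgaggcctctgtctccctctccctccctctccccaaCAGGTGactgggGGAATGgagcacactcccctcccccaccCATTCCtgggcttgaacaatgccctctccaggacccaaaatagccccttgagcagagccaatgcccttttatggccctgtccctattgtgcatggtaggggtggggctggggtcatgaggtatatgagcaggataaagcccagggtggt

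The genes whose log2 CPM most resembled that of a member over the 12 mice are given as a description, with no p, since the difference between the groups is part of each r. For Myh4, the fastest myosin, they included Pygm with a Pearson r of 0.996 and Smtnl2 with 0.995. For Myh7, the slow myosin, they were Slc47a1 with 0.959, Abra with 0.956 and Fbxo40 with 0.954.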

How the data were processed

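Poly(A) RNA of 12 mice, 4 per group, was sequenced from TruSeq stranded libraries as paired-end reads of 100 bases on an Illumina HiSeq. The authors aligned the reads to GRCm38/mm10 with STAR 2.6.1b and counted them with featureCounts 2.0.1. The deposited values are estimated counts per gene, not normalised, of which 10.2% (in 2933 genes) were not whole numbers; they were rounded here, by up to 0.5, and the step that made them fractional is not stated. The members and the lists of genes were chosen with earlier results of these data known.

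All 12 mice were fitted together in edgeR 4.0.16 (R 4.3.3) with filterByExpr by group, TMM and the quasi-likelihood test, with Benjamini-Hochberg adjustment over 14765 genes; 4231 genes were removed as too low. The SE is the log2 fold change over the square root of F. Common dispersion was 0.0799 (a coefficient of variation of 28.3%), and normalisation factors ran from 0.849 to 1.13. CPM were computed from the same library sizes; ratios and relative levels used log2 CPM with a prior count of 2 and two-sided exact permutation tests over mice (scipy 1.17.1), adjusted by Benjamini-Hochberg over 30 tests in each of the 2 families. Named from each list were the 3 genes with the largest change in Laminectomy against No operation and, for regulators, also the 5 with the highest mean CPM; the 3 genes most like Myh4 and Myh7 were named by Pearson r. Of the genes these rules picked, 2 are not reported here. Lengths (merged exons of each gene, for levels per kilobase), positions and coding sequences came from GENCODE vM21, promoters from RefSeq. The scripts were tested on simulated data.

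Alternatives were DESeq2 1.42.0, its size factors in edgeR, no filter or at least 10 counts in every mouse, fits of only the groups compared, a fold threshold of 1, prior counts of 0.5 and 5, Acta1 or Ttn as reference, scaling to the shared sarcomere genes, leaving out each mouse, and, chosen after seeing the data, leaving out SHAM 1 and Laminectomy 1 together.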

Additional observations from a re-analysis of the deposited data

Results flagged for a closer look

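In 13 of 90 groups of 4 mice, 1 mouse lay so far from the other 3 that its gap to the nearest took up most of the range of the group (Dixon's test, two-sided, at 0.05); chance flags about 1 in 20 groups. The values come from few mice, so the groups are not independent. SHAM 4 was high for Myh2 at 257.0 CPM (the others 85.5 to 103), for Myh7 at 255.1 CPM (41.1 to 72.2), for Myl2 at 46.17 CPM (5.19 to 7.42) and for Myl3 at 15.32 CPM (1.69 to 3.18). Laminectomy 1 was low for Pvalb at 19.91 CPM (205 to 237), for the log2 ratio Pvalb/Tnnc1 at −1.442 (1.28 to 1.70) and for the log2 ratio Tnni2/Tnni1 at −0.2737 (0.900 to 0.985). Relative to the shared sarcomere genes, on the log2 scale, Laminectomy 1 was low for Myh7 at −2.741 (−1.07 to −1.01), Myl2 at −7.767 (−4.04 to −3.52), Myl3 at −7.891 (−5.12 to −4.64) and Pvalb at −2.808 (−1.06 to −0.84). On the same scale SHAM 1 was high for Myh1 at 2.81 (1.14 to 1.31). No operation 1 was high for Myl2 at 605.0 CPM (280 to 292).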

How the results depend on the processing

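Of 1677 values recomputed under the alternatives, 17 came out stronger, 9 weaker and 19 reversed. Among the 17 were 8 counts of ratios or members without overlap, recomputed with mice left out. Such counts cannot fall when a mouse is left out, so they could only stay or come out stronger. The other 1632 stayed on their side of the threshold or, where a mouse left out meant no test, moved by less than 1 SD, or were counts within 1.5 times the main count. Among these were 48 ratios and relative levels that changed sign, 36 of them in Laminectomy against SHAM and 0 among the 5 ratios without overlap against No operation. For the 7 called members in both surgical comparisons, 262 of 262 values were kept when scaling to the shared sarcomere genes is left aside. With that scaling the members called in SHAM against No operation were 4, and the log2 fold changes that reversed were Myh1 0.811, Myh7 0.0726, Tnnt1 2.07, Tnni1 2.81 and Tnnc1 2.02 in SHAM against No operation, Myh1 0.103, Tnnt1 2.47 and Tnnc1 2.58 in Laminectomy against No operation, and Myh1 −0.709, Myh2 −0.489, Myh4 −0.231, Myh7 −0.253 and Myl2 −0.223 in Laminectomy against SHAM. With Ttn as the reference the relative level of Myh1 was −0.176 in Laminectomy against No operation, and those of Pvalb and Myl3 were −0.127 and −0.19 in Laminectomy against SHAM. Leaving out each mouse in turn gave −0.022 to 0.393 for Tnni1 in Laminectomy against No operation and −0.0149 to 1.20 for Myh2 in Laminectomy against SHAM. The ratios without overlap in Laminectomy against SHAM then numbered 0 to 1, the relative levels without overlap 3 to 6 in SHAM against No operation and 0 to 1 in Laminectomy against SHAM. With SHAM 1 and Laminectomy 1 both left out these counts were 1, 5 and 1. With replicate number as a block Tnni1 was at −0.0179 in Laminectomy against No operation, and 7, 7 and 0 members were called. For the ratios, this block gives an exact test over 4 sign flips, which cannot reach a p below 0.05. The ratios could therefore not pass there, and their being kept is not a result. The deviations of mice with the same number correlated at −0.228 to 0.352, and no pairing was used. DESeq2 gave no adjusted p for Myl2. The cause was not tested for any of these changes. With 4 mice against 4, no exact permutation p can go below 0.0286, and after adjustment over 30 tests none passed; counts of about 10 for Myl2 and Myl3 in Laminectomy 1 limit their precision there.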
